A study of Rattus norvegicus with 12 samples.

Results

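The 7 genes described here encode the fibrillar collagen chains and the proteins that surround, organise and crosslink them in fibrotic matrix. They are Col1a1 (ENSRNOG00000003897), Col1a2 (ENSRNOG00000011292), Col3a1 (ENSRNOG00000003357), Fn1 (ENSRNOG00000014288), Sparc (ENSRNOG00000012840), Postn (ENSRNOG00000012660) and Lox (ENSRNOG00000014426). They were chosen as a fixed set of Ensembl rat identifiers, and all 7 were present among the 21698 genes of the deposited count table. The table lists identifiers without names, so the 7 names are those given with the identifiers when the set was chosen. RNA-seq had been done on 12 libraries in 4 groups of 3, from the rat kidney epithelial line NRK-52E and the rat kidney fibroblast line NRK-49F. NRK-52E received either vehicle or cisplatin, a DNA-crosslinking drug that injures tubular cells, at 40 µM. NRK-49F was grown in medium conditioned by NRK-52E that were either untreated (untreated medium) or exposed to 40 µM cisplatin (cisplatin medium).

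All cells grew in DMEM with 5% FBS. The protocol in the labels gives 6 h of drug, a rinse and 24 h of conditioning, whereas the design text gives 24 h of treatment, and the labels do not settle which applies to the sequenced NRK-52E cells. Both are established lines. Whether the libraries within a group derive from different cultures is not stated, and the p-values below therefore reflect library-to-library spread that may be purely technical. Marker genes of epithelium and fibroblasts could not be looked up without gene names. Library totals ranged from 9684887 to 12549675 counts, and no library was left out.

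Type I collagen is assembled from alpha chains encoded by Col1a1 and Col1a2, and type III collagen from the Col3a1 chain. These fibrils carry the tensile load of scar tissue, and in the kidney they are deposited mainly by interstitial fibroblasts. Fibronectin, the product of Fn1, forms a provisional network on which collagen fibrils assemble. Sparc encodes a collagen-binding glycoprotein and Postn encodes periostin, both matricellular proteins, and lysyl oxidase, encoded by Lox, oxidises lysine residues so that collagen and elastin become crosslinked.

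Levels are given as CPM, a gene's share of the library's counts on a common scale with library sizes scaled by TMM factors over all 12 libraries. Because CPM is not corrected for gene length, levels were compared between groups and not between genes. In a bulk culture, fewer cells that express a gene and less RNA per cell cannot be told apart.

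The type I collagen chains differed most between the lines. Col1a1 was at 90.6, 95.8 and 106 CPM in the NRK-52E vehicle libraries and at 192, 185 and 188 CPM in the NRK-52E cisplatin libraries. In NRK-49F it was at 25865, 23189 and 24637 CPM in untreated medium and at 23389, 22338 and 21414 CPM in cisplatin medium. The epithelial groups did not overlap, and every cisplatin library was the higher, whereas the ranges of the NRK-49F groups overlapped.

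Col1a2 was low in the epithelial line. Its level was 6.15, 6.12 and 7.11 CPM with vehicle and 5.98, 5.56 and 4.19 CPM with cisplatin, which rested on 47 to 101 reads in a library. In NRK-49F it was at 18696, 17251 and 18101 CPM in untreated medium and at 15929.9, 15242 and 14984 CPM in cisplatin medium. Within each line the treated libraries all lay below the control libraries, although in NRK-52E the gap was small beside the spread.

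Col3a1 was at 199.6, 231 and 279 CPM with vehicle and at 152, 111 and 129.8 CPM with cisplatin in NRK-52E. It was at 2173, 1948 and 2150.5 CPM in untreated medium and at 2209.7, 2209 and 2168 CPM in cisplatin medium in NRK-49F. The epithelial groups were apart, with cisplatin lower, and the fibroblast groups overlapped.

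Fibronectin transcript was at 439, 468 and 482 CPM with vehicle and at 512, 498 and 506 CPM with cisplatin in NRK-52E. It was at 9137, 9207 and 8825 CPM in untreated medium and at 6949.8, 6689 and 6233 CPM in cisplatin medium in NRK-49F. Neither pair of groups overlapped, and the treated libraries were higher in the epithelial line and lower in the fibroblast line.

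Sparc had the smallest log2 changes of the 7 genes within each line with TMM scaling, though not in NRK-49F with library size only. It was at 1519, 1564 and 1605 CPM with vehicle and at 1734, 1559 and 1592 CPM with cisplatin in NRK-52E. In NRK-49F it was at 3287, 3221 and 3100.4 CPM in untreated medium and at 3365, 3158 and 3333 CPM in cisplatin medium. The treated and control ranges overlapped in both lines.

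Postn was low throughout. It was at 2.77, 3.33 and 3.31 CPM with vehicle and at 4.26, 6.09 and 6.87 CPM with cisplatin in NRK-52E, from 37 to 81 reads in a library. It was at 38.8, 45.0 and 36.2 CPM in untreated medium and at 19.3, 22.9 and 22.6 CPM in cisplatin medium in NRK-49F. The groups of each line were apart, with treated libraries higher in NRK-52E and lower in NRK-49F.

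With TMM scaling, Lox had the smallest log2 differences between the lines. It was at 568, 601 and 634 CPM with vehicle and at 449.8, 457 and 444 CPM with cisplatin in NRK-52E. It was at 496, 473 and 448 CPM in untreated medium and at 559, 525 and 557 CPM in cisplatin medium in NRK-49F. Here too the groups of each line were apart, with treated libraries lower in NRK-52E and higher in NRK-49F.

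**Figure D1:**
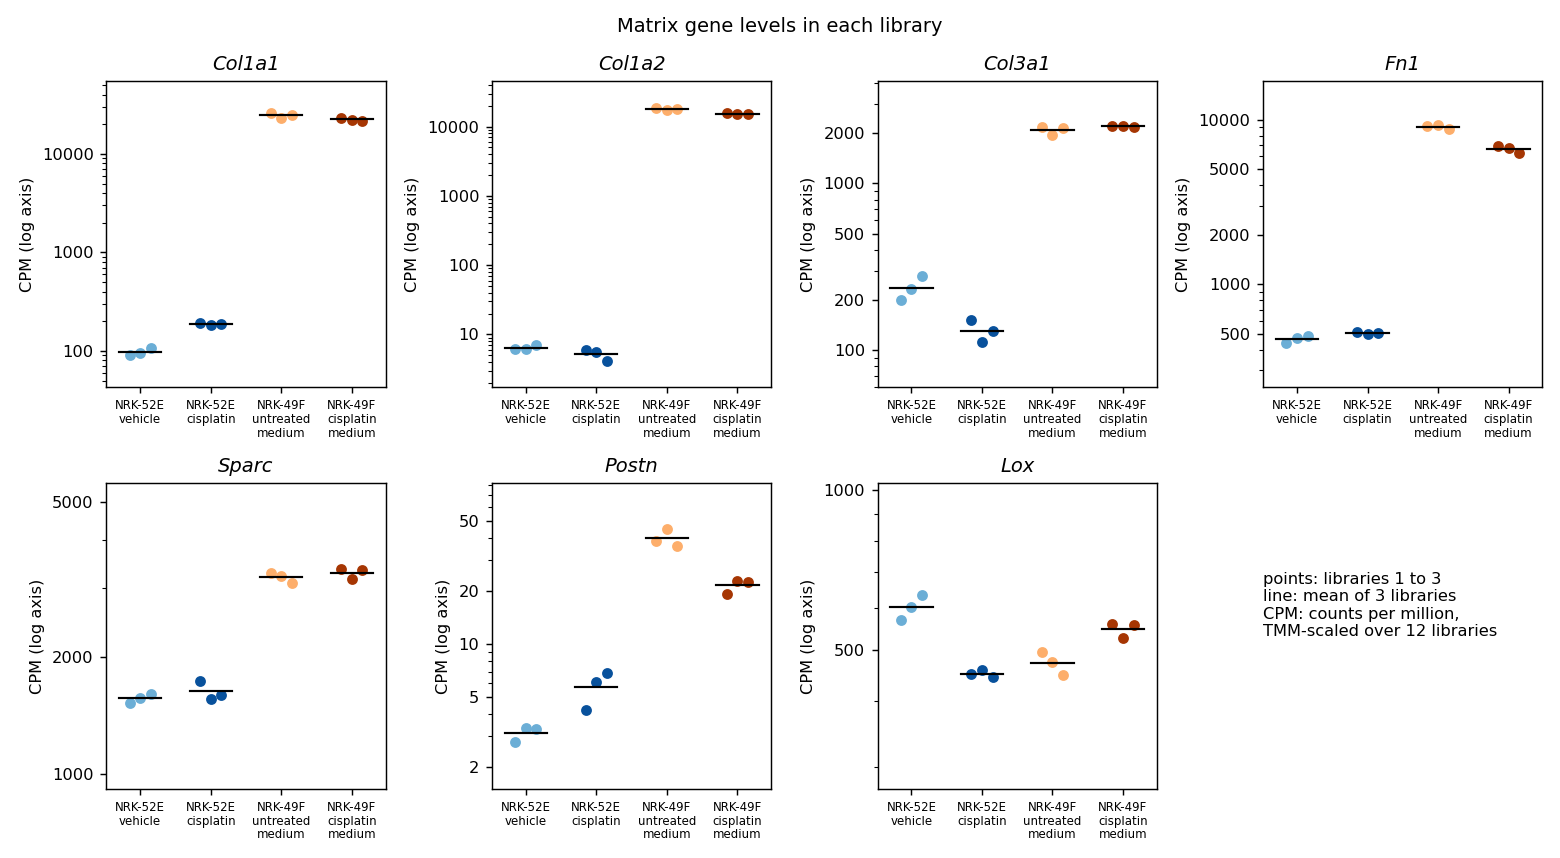
Level of each of the 7 genes in the 12 libraries, as TMM-scaled CPM on a log axis, with the mean of each group of 3 as a line. The collagens, Fn1, Sparc and Postn are higher in every NRK-49F library than in any NRK-52E library, whereas the 4 groups of Lox lie between 444 and 634 CPM.

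The lines were first compared in their control arms, NRK-49F in untreated medium against NRK-52E with vehicle. All 7 genes passed (edgeR's quasi-likelihood test, Benjamini-Hochberg adjusted p below 0.05), and 6 of them were higher in NRK-49F and 1 lower. Of all tested genes 81.7% passed, 40.9% as higher and 40.9% as lower. The 6 higher genes also differed by at least 2-fold, as did 41.1% of all tested genes. The line and the conditioned medium cannot be told apart in this comparison. Col1a2 was 2778-fold higher in the fibroblasts, a log2 difference of 11.44 ± 0.07 (SE, edgeR adjusted p = 8.82e-60). Col1a1 was 252-fold higher, Fn1 19.5-fold, Postn 12.7-fold, Col3a1 8.83-fold and Sparc 2.05-fold.

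Lox was lower in NRK-49F, by a log2 difference of -0.35 (SE 0.04, edgeR adjusted p = 2.93e-10). The treated arms were compared as NRK-49F in cisplatin medium against NRK-52E given the drug itself, so that line and agent cannot be told apart. All 7 genes were higher in NRK-49F and passed (6 of 7, without Lox, with library size only), where 82.7% of tested genes passed, 40.1% as higher and 42.6% as lower. All but Lox differed by at least 2-fold, against 37.8% of all tested genes. Col1a1 was then 119-fold higher, Fn1 13.1-fold, Postn 3.81-fold, Col3a1 16.8-fold, Sparc 2.02-fold and Col1a2 2897-fold. Lox was higher by a log2 difference of 0.28 (SE 0.04, edgeR adjusted p = 5.41e-08). With library size as the only scaling, that Lox difference turned to -0.03 (edgeR adjusted p = 0.451) and the one between the control arms was -0.84, and the median log2 difference of all genes between the lines moved by -0.31 and -0.49. Relative to that median, Lox stood at -0.32 in the control arms and at 0.32 in the treated arms. These relative values are the same under each scaling by construction and are no check of either sign.

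For 6 genes both NRK-49F groups ranked above both NRK-52E groups, with no overlap between the lines. The share of all genes without such overlap was not computed. Of tested genes, 40.9% passed as higher in NRK-49F in the control arms and 40.1% in the treated arms (81.7% and 82.7% in either direction). With so many genes higher in NRK-49F, the separation by itself is not read as particular to these genes. By size, these 6 stood above 80.3% (Sparc) to 99.7% (Col1a2) of tested genes in the control arms. In the treated arms they stood above 82.9% (Sparc) to 99.9% (Col1a2). The top ranks of Col1a1, Col3a1 and Sparc were shared by NRK-49F groups whose ranges overlapped, and the lower ranks of Sparc by overlapping NRK-52E groups. Lox ran from NRK-52E with vehicle down through NRK-49F in cisplatin medium and NRK-49F in untreated medium to NRK-52E with cisplatin, and the last pair overlapped. With library size only, both NRK-52E groups had the higher mean Lox levels.

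The 7 genes together held 4.65% ± 0.19 of all counts in NRK-49F with untreated medium and 4.70% ± 0.17 with cisplatin medium (SD, n = 3 each). In vehicle-treated NRK-52E they held 0.338% ± 0.02, and in cisplatin-treated NRK-52E 0.338% ± 0.01 (SD, n = 3 each). The chains of type I collagen alone took 3.45% ± 0.18 of the reads of NRK-49F in untreated medium, and 0.0118% ± 0.00096 of those of NRK-52E with vehicle. Within each line, these unscaled shares of the 7 genes differed between the treatments by less than the spread between libraries. Summed as TMM-scaled CPM, the 7 genes ran from 55335 to 59693 in NRK-49F in untreated medium and from 48712 to 52421 in cisplatin medium, which do not overlap. In NRK-52E these sums ran from 2825 to 3116 with vehicle and from 2822 to 3049 after the drug, and overlapped.

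For 3 of the 7 genes, Col1a2, Postn and Sparc, a sequence window around the transcription start was at hand, from RefSeq on the rat build GRCr8. These were all the windows at hand for the set, and a stretch of each is shown. The stretches of Postn and Sparc run up to the start. That of Col1a2 lies further before the start and holds both marked motifs, so the stretches do not show the same region. Each window runs from 250 bases before to 50 bases after the annotated start, and the stretches below are 5′ to 3′ on the gene's own strand. Capitals mark TATAAA, the core of a TATA box, and ATTGG, which is CCAAT read on the other strand. Whether any marked motif acts in these genes was not tested.
Col1a2 (chr4:33518307-33518406, plus strand, 250 to 151 bases before the start): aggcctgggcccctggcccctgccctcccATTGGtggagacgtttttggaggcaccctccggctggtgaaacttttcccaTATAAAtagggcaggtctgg
Postn (chr2:140677961-140678060, plus strand, 100 to 1 bases before the start): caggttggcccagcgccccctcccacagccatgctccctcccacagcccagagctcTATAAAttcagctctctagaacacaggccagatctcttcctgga
Sparc (chr10:40038817-40038916, minus strand, 100 to 1 bases before the start): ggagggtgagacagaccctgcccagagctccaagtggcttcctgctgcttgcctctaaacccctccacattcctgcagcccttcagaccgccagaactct
In the whole windows, searched on both strands, TATAAA began 170 bases before the start of Col1a2 and 44 bases before that of Postn. CCAAT was found in the Col1a2 window, 221 bases before the start, and neither motif was found in the Sparc window. Of 33469 windows of this length, 14.2% held TATAAA and 37.5% held CCAAT on either strand.

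The first treatment comparison concerned cisplatin in the epithelial cells. Of the 7 genes, 3 rose (Col1a1, Postn and Fn1), 2 fell (Col3a1 and Lox) and Col1a2 and Sparc did not pass the test. Over all tested genes 76.2% passed, 38.7% as higher and 37.6% as lower, so 5 of 7 is a share near the background. None of the 7 changed by at least 2-fold, which 22.3% of all tested genes did. The CPM ranges of the treatments were apart for 6 of the 7, where they were apart for 77.7% of all tested genes. The median log2 fold change of the 7 was 0.04 and that of all tested genes 0.01.

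Col1a1 rose from 97.5 ± 7.82 to 188 ± 3.20 CPM (SD, n = 3 each). On the log2 scale the fitted change was 0.93 ± 0.05 (SE, edgeR adjusted p = 1.6e-18). Of all tested genes, 84.6% had a lower log2 fold change. Col1a2, the partner chain, did not follow. Its log2 fold change was -0.31 (95% interval -0.63 to 0.01, edgeR adjusted p = 0.0771). It did pass, as a fall, in one fit of all 12 libraries, with no filter on low counts and without cisplatin replicate 1 (edgeR adjusted p = 0.044, 0.0444 and 0.0351).

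Col3a1 moved the other way from Col1a1, from 237 ± 39.7 to 131 ± 20.2 CPM (SD, n = 3 each). This was a fitted log2 change of -0.87 ± 0.08 (SE, edgeR adjusted p = 2.83e-12). In NRK-52E the collagen transcripts thus split, with Col1a1 at 1.91-fold and Col3a1 at 0.547 of its vehicle level. Both also passed a test against a 1.5-fold change, which no other member passed in this line.

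Fn1 rose slightly, from 463 ± 21.8 to 505 ± 7.19 CPM (SD, n = 3 each). Its log2 fold change came to 0.11 ± 0.04 (SE, edgeR adjusted p = 0.0156). That call was lost without vehicle replicate 1 (log2 fold change 0.06, edgeR adjusted p = 0.194), without vehicle replicate 2 (edgeR adjusted p = 0.0656) and with no filter on low counts (edgeR adjusted p = 0.179). Sparc had a log2 fold change of 0.04 (95% interval -0.04 to 0.13, edgeR adjusted p = 0.334).

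Postn rose from 3.14 ± 0.32 to 5.74 ± 1.34 CPM (SD, n = 3 each). The fitted log2 change was 0.84 ± 0.19 (SE, edgeR adjusted p = 0.000172). Lox, the crosslinking enzyme, fell from 601 ± 33.1 to 450.3 ± 6.33 CPM (SD, n = 3 each). On the log2 scale the fitted change was -0.43 ± 0.04 (SE, edgeR adjusted p = 1.93e-11). All directions named for NRK-52E were the same with TMM, RLE and library-size scaling.

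**Figure D2:**
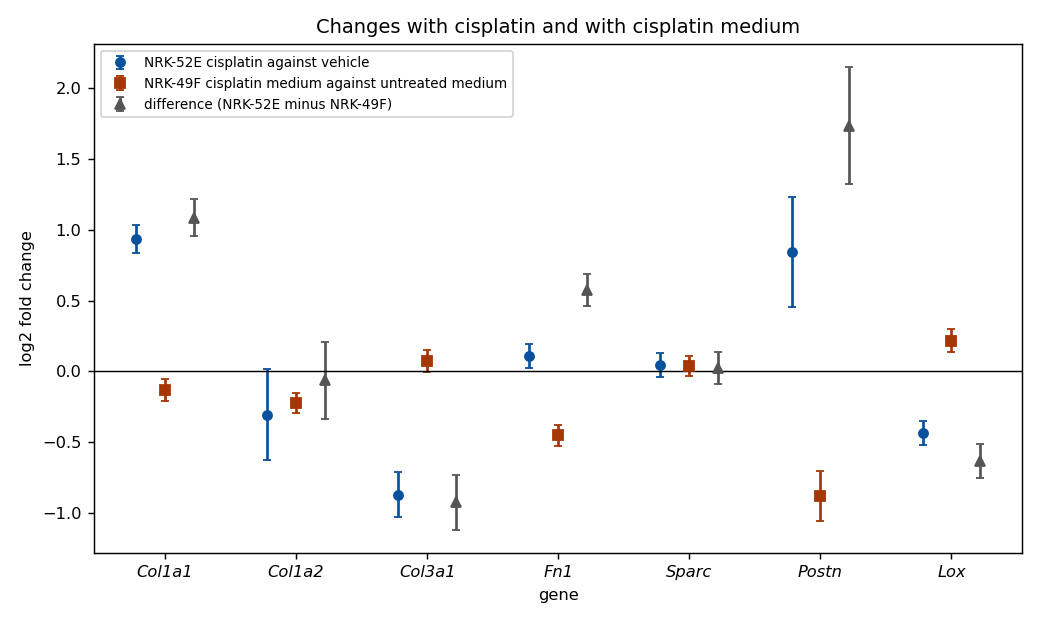
Log2 fold change of each gene with its 95% interval, for cisplatin in NRK-52E (circles), cisplatin medium in NRK-49F (squares) and the difference of the 2 (triangles). Postn is at 0.84 in NRK-52E and -0.88 in NRK-49F, Lox at -0.43 and 0.22, and the intervals of Sparc span 0 in all 3.

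The second comparison set the matrix transcripts of NRK-49F in cisplatin medium against those in untreated medium. What the medium contained, including any remaining drug, was not tested. With TMM scaling, 4 of the 7 genes fell (Postn, Fn1, Col1a2 and Col1a1), Lox rose, and Col3a1 and Sparc did not pass the test. Over all tested genes 61.8% passed, with 30.8% higher and 31.0% lower. None of the 7 changed by at least 2-fold, against 6.82% of all tested genes. The CPM ranges were apart for 4 of the 7 genes (Fn1, Col1a2, Postn and Lox), against 65.5% of all tested genes. With library size only they were apart for 5, with Col3a1 and Sparc added and Col1a2 no longer among them. The 65.5% holds for TMM-scaled CPM, and the share of all genes with library size only was not computed. With library size as the only scaling the split was 2 that fell (Postn and Fn1) and 3 that rose (Lox, Col3a1 and Sparc). Under that scaling the median over all tested genes shifted by 0.20 on the log2 scale, from 0.02 to 0.22.

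Postn fell from 40.0 ± 4.49 to 21.6 ± 2.02 CPM (SD, n = 3 each). This was a fitted log2 change of -0.88 ± 0.09 (SE, edgeR adjusted p = 9.03e-11). Of tested genes, 4.25% had a lower log2 fold change. It was the single member of the 7 to pass the test against a 1.5-fold change in NRK-49F. Fn1 fell from 9056 ± 204 to 6624 ± 363 CPM (SD, n = 3 each). Its log2 fold change came to -0.45 ± 0.04 (SE, edgeR adjusted p = 6.15e-13). With library size only, Fn1 fell by 0.25 and Postn by 0.68 on the log2 scale, and both passed.

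The type I collagen chains fell by less, and only with TMM or RLE scaling or DESeq2, not with library size only. Col1a2 fell from 18016 ± 726 to 15385 ± 489 CPM (SD, n = 3 each). The fitted log2 change was -0.22 ± 0.04 (SE, edgeR adjusted p = 1.07e-06). Col1a1 went from 24564 ± 1339 to 22380.2 ± 988 CPM (SD, n = 3 each). On the log2 scale the fitted change was -0.13 ± 0.04 (SE, edgeR adjusted p = 0.00281). Neither passed with library size only, where Col1a2 was at -0.02 (edgeR adjusted p = 0.541) and Col1a1 turned to 0.07 (edgeR adjusted p = 0.101). Relative to the median of all tested genes, Col1a1 was at -0.15 and Col1a2 at -0.24. A change of scaling moves all genes by about the same amount, so these relative values are the same under each scaling by construction and are no check of the falls.

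Lox rose from 472 ± 24.1 to 547 ± 19.1 CPM (SD, n = 3 each). This was a fitted log2 change of 0.22 ± 0.04 (SE, edgeR adjusted p = 1.75e-05), or 0.42 with library size only. Col3a1 had a log2 fold change of 0.07 (95% interval -0.003 to 0.15, edgeR adjusted p = 0.0875). It passed without untreated-medium replicate 1 (log2 fold change 0.10, edgeR adjusted p = 0.0326) and with library size only (0.27, edgeR adjusted p = 7.22e-08). Sparc was at 0.04 (95% interval -0.03 to 0.11, edgeR adjusted p = 0.339), and at 0.24 with library size only (edgeR adjusted p = 2.74e-07). Relative to the median of all tested genes, Lox stood at 0.20, Col3a1 at 0.06 and Sparc at 0.02.

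**Figure D3:**
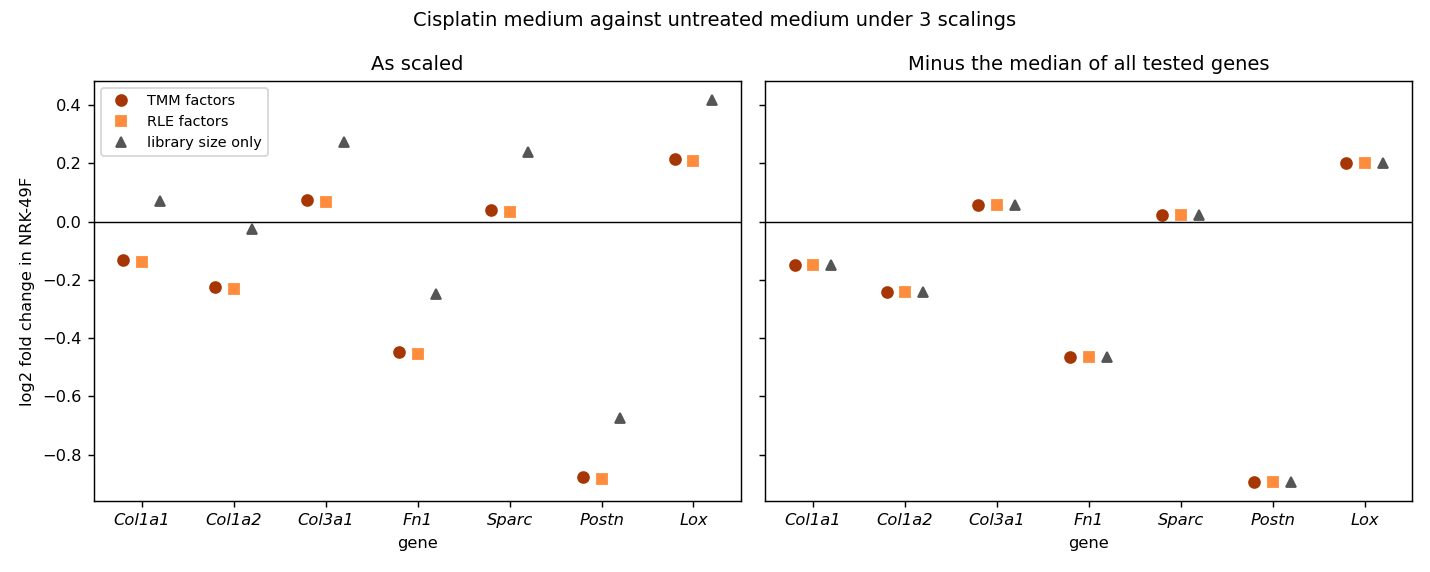
Log2 fold change of each gene in NRK-49F, cisplatin medium against untreated medium, under TMM factors, RLE factors and library size only (left), and after the median of all tested genes is subtracted (right). Library size only moves Col1a1 from -0.13 to 0.07, while on the right the 3 scalings coincide by construction, with Postn at -0.89 and Lox at 0.20.

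The responses of the lines were compared in one fit of all 12 libraries, as the log2 fold change in NRK-52E minus that in NRK-49F. Of the 7 genes, 5 differed, 3 of them higher in NRK-52E and 2 lower, where 66.5% of all tested genes passed, 33.9% as higher and 32.6% as lower. For 2 of them, Postn and Col1a1, the responses differed by at least 2-fold, against 27.8% of all tested genes. Because the lines received different agents, a drug and a medium, line and agent cannot be told apart. The difference was 1.73 for Postn (SE 0.20, edgeR adjusted p = 3.55e-10), 1.08 for Col1a1 (SE 0.06, edgeR adjusted p = 1.07e-19) and 0.58 for Fn1 (SE 0.06, edgeR adjusted p = 1.57e-12). It was -0.92 for Col3a1 (SE 0.10, edgeR adjusted p = 8.73e-12) and -0.63 for Lox (SE 0.06, edgeR adjusted p = 5.49e-13).

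These same values are the change in the gap between the lines. Col1a1, Fn1 and Postn were closer between the treated arms than between the control arms, and Col3a1 was further apart. For Col1a2 the difference was -0.06 (95% interval -0.33 to 0.21, edgeR adjusted p = 0.751), and for Sparc 0.02 (95% interval -0.09 to 0.13, edgeR adjusted p = 0.747). With library size only, Sparc was at -0.15 (edgeR adjusted p = 0.0127), and the 5 differences that had passed kept their signs and passed.

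Ratios of reads within a library do not depend on the scaling, so they were used to follow the genes against one another. The reads are not corrected for length, and only the change of a ratio between groups is read. Col1a1 had 14.7, 15.7 and 14.9 reads for each Col1a2 read in NRK-52E with vehicle, and 32.1, 33.3 and 45.0 with cisplatin. In NRK-49F the ratio was 1.38, 1.34 and 1.36 in untreated medium and 1.47, 1.47 and 1.43 in cisplatin medium. Between the groups of a line, the ratio rose 2.41-fold with cisplatin and 1.07-fold with cisplatin medium.

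Col3a1 reads for each Col1a1 read went from 2.20, 2.42 and 2.63 with vehicle to 0.792, 0.601 and 0.689 with cisplatin in NRK-52E. In NRK-49F they went from 0.0840, 0.0840 and 0.0873 to 0.0945, 0.0989 and 0.101. The Col3a1 to Col1a1 ratio thus changed to 0.286 of its vehicle value with cisplatin, and rose 1.15-fold with cisplatin medium. Which of these collagens has more transcripts cannot be read from counts without a correction for length. Fn1 reads for each Col1a1 read went from 4.85, 4.89 and 4.55 to 2.67, 2.69 and 2.69 in NRK-52E. They went from 0.353, 0.397 and 0.358 to 0.297, 0.299 and 0.291 in NRK-49F.

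None of these 6 pairs of groups overlapped. Lack of overlap was common among all 21 pairs of the 7 genes, at 18 in NRK-52E and 19 in NRK-49F, so it does not set these ratios apart. In an exact permutation test of 3 against 3 libraries, two-sided p was 0.1 for each ratio, the smallest value this design allows, and 0.1 after Benjamini-Hochberg adjustment over the 6 tests. Over all 21 pairs of the 7 genes, the log2 ratio changed by -1.80 to 1.37 in NRK-52E and by -1.10 to 0.96 in NRK-49F.

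**Figure D4:**
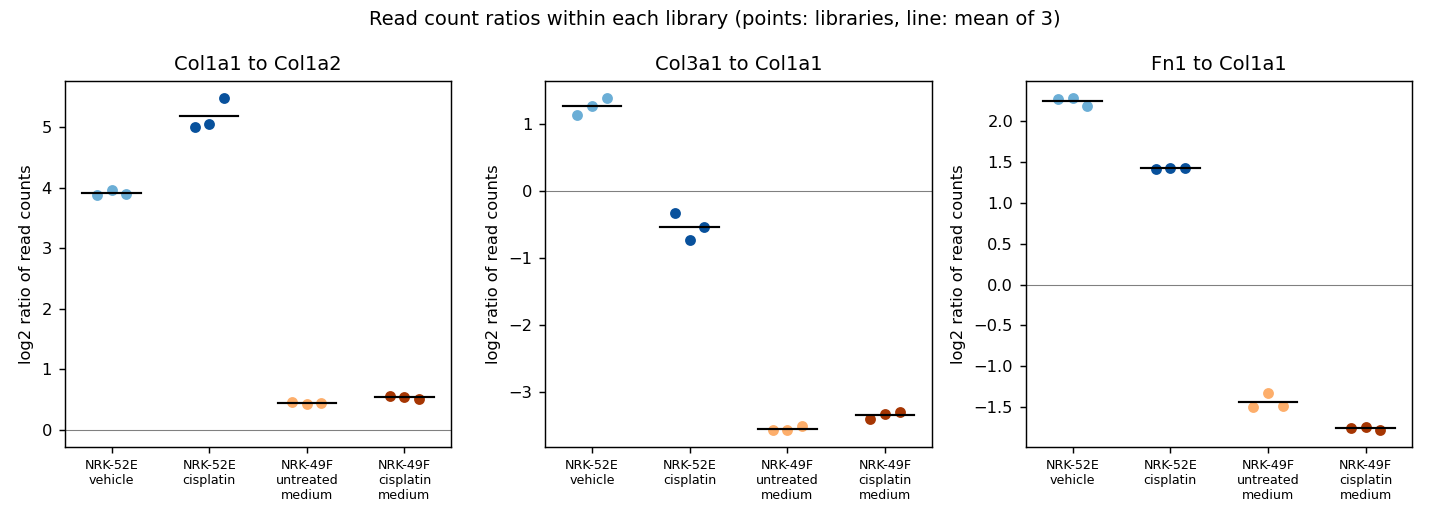
Log2 ratio of read counts within each library for Col1a1 to Col1a2, Col3a1 to Col1a1 and Fn1 to Col1a1, with the mean of 3 libraries as a line. The Col1a1 to Col1a2 ratio is near 0.45 and 0.54 in the NRK-49F groups and at 3.92 and 5.18 in the NRK-52E groups.

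The ratio also sets a scale for the few Col1a2 reads of NRK-52E. At the highest Col1a1 to Col1a2 ratio of any NRK-49F library, 1.47, all Col1a2 reads of an NRK-52E library would be matched by 9.37% to 9.96% of its Col1a1 reads with vehicle and by 3.27% to 4.58% with cisplatin. The same calculation for Col3a1, Fn1, Sparc, Postn and Lox gave under 1% of their reads in each NRK-52E library. It takes the ratios of NRK-49F as given, and the origin of the Col1a2 reads in NRK-52E was not tested.

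The gene whose log2 CPM over the 12 libraries was most like that of Col1a1 was ENSRNOG00000049537, with a Pearson correlation of 0.9997. These libraries fall into 2 lines that differ widely, and 328 of 13120 genes correlated with Col1a1 above 0.99, and the points of a line share its level. Within the 6 NRK-49F libraries, the gene most like Fn1 was ENSRNOG00000008678 (r = 0.9987), and 95 of 13120 genes correlated above 0.99. These libraries span both media, between which Fn1 levels did not overlap, so genes that differ between the media can correlate by that alone. The files pair neither identifier with a name.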

How the data were processed

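The deposited file holds raw counts of reads for each Ensembl rat gene in every library. The submitters' processing notes list STAR 2.7.10a along with featureCounts and Subread. The genome build is not given in the sources used here, nor are the annotation and strand setting, and overlapping or antisense genes may therefore share reads. The labels' protocols name a stranded TruSeq mRNA kit.

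The genes and lists were chosen with earlier results of these data known. Tests used edgeR 4.0.16 in R 4.3.3: TMM factors with glmQLFit and glmQLFTest on group alone, after filterByExpr (at least 10 counts, and 15 in total), and Benjamini-Hochberg adjustment over all tested genes at 0.05. Each line was fitted apart, and comparisons between lines used 1 fit of 12 libraries. Each standard error was derived from the log2 fold change and its F statistic. Ratios were tested by exact permutation (scipy 1.17.1), and the edgeR code was first tested on simulated counts. Alternatives were DESeq2 1.42.0, library size only, RLE factors, no filter, a replicate block, 1 fit of 12 libraries, a test against 1.5-fold and each library left out. Replicate numbers are not stated to pair libraries.

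Named genes were the 7 members, with the gene most alike to Col1a1 and to Fn1. Of 21698 identifiers, 0 matched the RefSeq gene table, so 4 lists of related matrix genes and 4 of cell type markers were not run. Only the first of each pair of most alike genes is printed.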

Additional observations from a re-analysis of the deposited data

Results flagged for a closer look

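The log2 response of NRK-49F was subtracted from that of NRK-52E and tested over all 12 libraries (edgeR). The responses differed in 5 of the 7 genes, a share near the 66.5% of all tested genes. NRK-52E received a drug and NRK-49F a medium, so line and agent cannot be told apart. NRK-52E minus NRK-49F was 1.08 for Col1a1, -0.92 for Col3a1, 0.58 for Fn1, 1.73 for Postn and -0.63 for Lox. Groups of 3 libraries were too small to search for single deviating libraries.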

How the results depend on the processing

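Depth limited only Col1a2 and Postn in NRK-52E, with at most 101 reads in a library. The test against a 1.5-fold change called 3883 genes in NRK-52E, 1184 in NRK-49F, 4512 for the difference of responses, and 6709 and 6238 between the lines in the control and the treated arms. It dropped, at unchanged log2 values, Fn1 (0.11), Postn (0.84) and Lox (-0.43) in NRK-52E, and Col1a1 (-0.13), Col1a2 (-0.22), Fn1 (-0.45) and Lox (0.22) in NRK-49F. It also dropped Fn1 (0.58) and Lox (-0.63) for the difference, and Lox between the lines (-0.35 and 0.28). These losses follow from the stricter null. Library size only turned Col1a1 in NRK-49F to 0.069, the Sparc difference to -0.15 and Lox between the treated arms to -0.034, ended the call of Col1a2 in NRK-49F (-0.025), and added calls of Col3a1 (0.27) and Sparc (0.24) there. It also moved the split of all called genes in NRK-49F to 5918 higher and 1926 lower, from 3555 and 3568, that of the difference from 51.0% to 40.9% higher, and those between the lines from 50.0% to 31.1% and from 48.5% to 33.7% higher. With no filter, Col1a2 passed in NRK-52E (-0.35), Fn1 did not (0.065), and Sparc was at -0.00083 there and -0.024 for the difference. One fit of all 12 libraries called Col1a2 in NRK-52E (-0.29). The cause of the changes with no filter and with one fit was not tested. With each library left out, values ran in NRK-52E from -0.41 to -0.18 for Col1a2, from 0.061 to 0.13 for Fn1 and from -0.0013 to 0.074 for Sparc. They ran from 0.022 to 0.10 for Col3a1 in NRK-49F, and for the difference from -0.17 to 0.062 for Col1a2 and from -0.051 to 0.052 for Sparc. Without Fn1, the share of counts was 0.285%, 0.279%, 3.92% and 4.09% in the groups with vehicle, cisplatin, untreated medium and cisplatin medium. DESeq2 and RLE factors changed no call of the 7 genes.

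With the replicate number as a block, 9382 genes were called in NRK-52E, 7020 in NRK-49F and 8681 for the difference, and no call of the 7 genes changed. Deviations of same-numbered libraries correlated at -0.05 to 0.02, so the numbers were not taken as pairs.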
